A study of Sus scrofa with 2 samples.

Results

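Lymphatic endothelial cells line the vessels that drain fluid and immune cells from the skin, and 172 such cells were found among 6998 filtered single cells of pig skin (2.46%). They were selected by their own counts. A barcode was taken when it had at most 4500 genes, at most 30000 UMIs and at most 10% of its UMIs on 13 mitochondrial protein genes, carried at least 2 UMIs of PROX1, held less than 1% of its UMIs on the collagen genes COL1A1, COL1A2 and COL3A1 together, and held less than 0.3% on the basal keratinocyte gene KRT5. A UMI (unique molecular identifier) marks 1 captured transcript, and its PCR copies count as 1. The rule took 85 of 2775 filtered cells of the fresh library and 87 of 4223 of the cryopreserved library.

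Both libraries were made from full-thickness dorsal skin of healthy young male farm pigs with a droplet 3′ kit. The animals' exact age and strain, and whether the libraries share an animal, are not given in the sources used here. One library is labelled fresh with no treatment. The other is labelled frozen and held cells that were stored in FBS with DMSO in liquid nitrogen and then thawed, although the extraction text of both samples describes freezing. The fresh matrix held 4379 barcodes and 53271738 UMIs, and the cryopreserved matrix held 4860 barcodes and 42217632 UMIs. The lymphatic endothelial cells contributed 704370 and 455521 of these UMIs. The libraries had 6 barcodes in common, 5 of them within the filters, and none of these was a lymphatic endothelial cell. With 1 library per condition no difference between fresh and cryopreserved cells could be tested, and the intervals given for such differences cover counting error only.

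PROX1 is the homeobox transcription factor that turns venous endothelium into lymphatic endothelium and keeps it lymphatic. Lymphatic endothelium takes up its main growth signal, VEGF-C, through the receptor VEGFR3, which FLT4 encodes. Its initial capillaries bear LYVE1 and release the chemokine CCL21, which guides dendritic cells and T cells into the vessel, while collecting vessels carry valves and fewer of these capillary genes. Blood endothelium shares many adhesion and junction genes with it but expresses PLVAP, SOX17 and leukocyte adhesion receptors such as P-selectin.

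The PROX1 gene (chromosome 9, 129527704 to 129583693 on Sscrofa11.1) gave 732 UMIs in the 85 fresh cells and 547 UMIs in the 87 cryopreserved cells. This was 1039 and 1201 CPM, the count scaled to a common total of all UMIs in these cells. A fresh cell held 5 PROX1 UMIs in the median and 38 at most, and a cryopreserved cell held 4 in the median and 31 at most. These values chose the cells and are a description. At the edge of the rule, 15 fresh and 18 cryopreserved cells had exactly 2 PROX1 UMIs, and 29 fresh and 39 cryopreserved barcodes that met every other limit had exactly 1. The cells with 2 UMIs had a median of 13 of the 25 pan-endothelial genes when fresh and 9.5 when cryopreserved. The barcodes with 1 UMI had 9 and 8. PLVAP, a protein of blood capillary and venular endothelium, stood at 185 CPM in the fresh barcodes with 1 UMI, at 65.8 CPM in the fresh cells with 2 UMIs and at 2.19 CPM in the fresh cells with 5 or more. In the cryopreserved library the same bands gave 55.9, 136 and 48.2 CPM, so the order in the fresh library was not seen there.

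**Figure D1:**
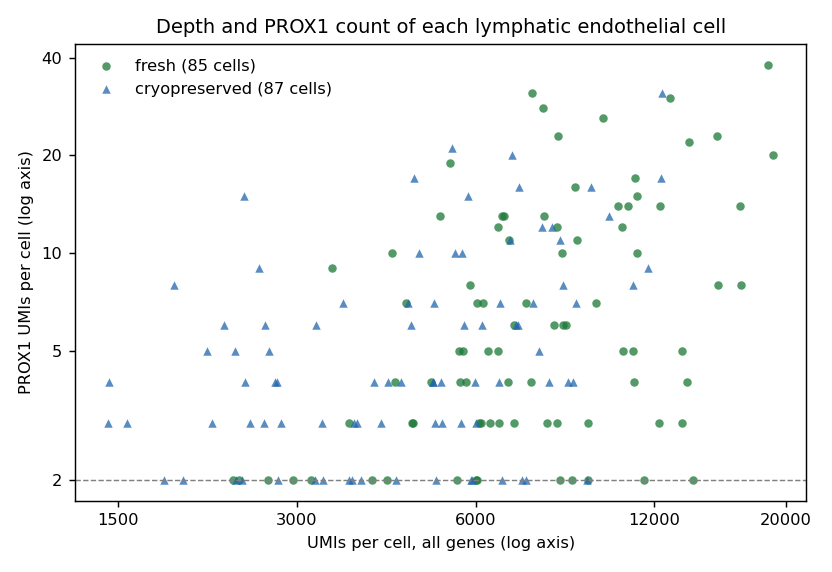
Each point is 1 lymphatic endothelial cell, with all its UMIs on the x axis and its PROX1 UMIs on the y axis (both log axes), for 85 fresh and 87 cryopreserved cells. The dashed line is the minimum of 2 PROX1 UMIs, on which 15 fresh and 18 cryopreserved cells lie, and the cryopreserved cells reach to lower depths.

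Genes that the rule did not use carried the label. CLDN5, a claudin of endothelial tight junctions, stood at 422 CPM in fresh and 490 CPM in cryopreserved lymphatic endothelial cells and was detected in 64 of 85 and 62 of 87 of them. The median fresh cell had 12 pan-endothelial genes and the median cryopreserved cell had 10, and 3 fresh and 2 cryopreserved cells had fewer than 3. Of 24 lymphatic identity genes, 12 were detected in the median fresh cell and 10 in the median cryopreserved cell. A gate for blood endothelial cells, with no PROX1 UMI, at least 3 UMIs of CDH5 and VWF together and the same other limits, took 162 fresh and 179 cryopreserved cells. Their median was 3 lymphatic identity genes in each library, and 6 fresh and 7 cryopreserved blood endothelial cells reached the median of the lymphatic cells of their library.

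As a background, PROX1 UMIs were counted in gates for other cells. In gates for fibroblasts, keratinocytes, T cells, myeloid cells and mural cells, the share of cells with at least 1 PROX1 UMI lay between 0% and 3.49%. The highest share was that of fresh fibroblasts (22 of 631 cells, exact 95% interval 2.20 to 5.23%), whose median depth of 16051 UMIs was above the 7470 of the fresh lymphatic cells. The level was at most 9.19 CPM, in the fresh mural gate, where 14 of 17 PROX1 UMIs were those of 1 lymphatic cell that met this gate too. PROX1 chose the lymphatic cells, so these values are a description and no check of the label.

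Markers of fibroblasts, keratinocytes, mural, myeloid and mast cells were below their level over all filtered cells, and those of some other cell types were not. The 8 fibroblast markers summed to 179 CPM in fresh and 87.8 CPM in cryopreserved lymphatic cells, against 8060 and 7598 CPM over all filtered cells, and their most abundant genes were LUM (39.8 CPM, fresh) and COL6A1 (28.5 CPM, cryopreserved). The collagen limit had removed cells rich in such genes. The 6 keratinocyte markers summed to 76.7 and 125 CPM (4774 and 5664 CPM over all filtered cells), led by DSP in both, with DSG3 at 0 in the fresh and KRT15 at 0 in the cryopreserved cells. The 8 mural markers summed to 66.7 and 50.5 CPM (870 and 815 CPM over all), led by PDGFRB and TAGLN, with CNN1 at 0 in both libraries and NOTCH3 at 0 in the cryopreserved one. The 8 myeloid markers summed to 34.07 and 10.98 CPM (802 and 1318 CPM over all), with CD163 and C1QC at 0 in both. The 6 T cell markers summed to 348 CPM in the fresh cells, close to the 372 CPM over all fresh filtered cells, and CCL5 made 325 CPM of this, with CD3D, CD3E, CD3G and CD2 at 0. They summed to 96.6 CPM in the cryopreserved cells, against 457 CPM over all, with CD3D and CD3G at 0. Of the 5 erythrocyte markers, HBB alone was found in the fresh cells (119 CPM), and it stood at 147 CPM in the cryopreserved cells. The list summed to 119 and 149 CPM, against 416 and 154 CPM over all. Mast cell markers summed to 58.2 and 63.7 CPM (155 and 128 CPM over all), led by KIT. Melanocyte and Schwann cell markers summed to 9.94 and 15.4 CPM, above the 4.21 and 3.05 CPM over all, from 7 UMIs in each library. The 10 dividing cell markers summed to 369 and 345 CPM, led by NUSAP1, against 248 and 307 CPM over all filtered cells. One cell held 29.6% of the fresh UMIs of this list. NUSAP1 itself was below its level over all filtered cells (125 and 123 CPM against 140 and 146 CPM). One fresh lymphatic cell also met the mural gate and 1 cryopreserved lymphatic cell the T cell gate.

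A mechanosensitive channel gene stood out among the markers of other cells. PIEZO2, which is known from Merkel cells and touch neurons, had 249 UMIs in 46 of the 85 fresh cells and 135 UMIs in 35 of the 87 cryopreserved cells. This was 354 and 296 CPM, and the same 8-gene Merkel cell list summed to 39.9 and 33.5 CPM over all filtered cells. The other 7 Merkel cell and neuroendocrine markers, KRT8, KRT18, KRT20, ATOH1, ISL1, CHGA and SYP, were at 0 UMIs in the lymphatic cells of both libraries. PIEZO2 was called higher in lymphatic than in blood endothelial cells by the test described further on, with a log2 fold change of 3.66.

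Lymphatic endothelial cells made up 3.06% of the fresh filtered cells (exact 95% interval 2.45 to 3.77%) and 2.06% of the cryopreserved filtered cells (interval 1.65 to 2.54%). A minimum of 2 UMIs favours deep cells, so every filtered cell was also thinned to 3000 UMIs, which left out 149 fresh and 466 cryopreserved cells with fewer. At least 1 PROX1 UMI, with the other limits met, was then held by 3.39% of thinned fresh cells (interval 2.73 to 4.15%) and by 2.05% of thinned cryopreserved cells (interval 1.62 to 2.55%). With the rule's minimum of 2 PROX1 UMIs, the thinned shares were 2.09% (interval 1.58 to 2.72%) and 1.36% (interval 1.01 to 1.78%), and these intervals overlap. The mitochondrial limit bears on the fresh share, which was 2.33% without it, against 1.93% in the cryopreserved library. The study describes a sort for living cells ahead of library preparation, and its part in the shares was not tested. Blood endothelial cells also had the larger share in the fresh library, with 5.84% (interval 4.99 to 6.78%) against 4.24% (interval 3.65 to 4.89%).

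The cryopreserved lymphatic endothelial cells held fewer UMIs. The median was 7470 UMIs per fresh cell (95% interval from order statistics 6552 to 8423) and 5086 per cryopreserved cell (interval 4040 to 5727), a ratio of 0.681. The ratio was 0.643 in blood endothelial cells and 0.721 over all filtered cells. The median number of genes was 2560 in fresh and 2054 in cryopreserved lymphatic cells. When each cell was thinned to 2000 UMIs, which left out 6 cryopreserved cells, the medians were 1147 (interval 1111 to 1169) and 1150 genes (interval 1124 to 1173). These intervals overlap. Thinned blood endothelial cells had 1096 and 1093 genes (medians of 160 and 172 cells). The mitochondrial share had a median of 2.82% in fresh and 3.03% in cryopreserved lymphatic cells, and of 3.55% and 3.91% in blood endothelial cells.

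Lymphatic and blood endothelial cells were then compared gene by gene to show what sets the lymphatic cells apart from their nearest neighbours. UMIs were summed over the cells of each kind in each library, and the 4 sums were fitted with edgeR's quasi-likelihood test with the library as a block. A gene was called at a Benjamini-Hochberg adjusted p under 0.05 and a change of at least 2-fold. Of 6755 genes with at least 50 UMIs, 831 were called higher (12.3%) and 973 lower (14.4%) in lymphatic cells. The 4 sums come from 2 suspensions and leave 1 residual degree of freedom, so edgeR took 1 spread for all genes, and the p-values measure the difference between these cells and not between animals. With DESeq2 the counts were 471 higher and 611 lower.

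Most lymphatic identity genes were called higher. Of 24 genes on the list that the matrices name, 20 had enough UMIs, and 17 were called higher (12.3% over all genes), 1 was called lower (14.4%) and 2 were not called. The median log2 fold change of the list was 3.37, against -0.02 over all genes tested. The list was chosen for what is known to go with PROX1, so its direction is a check of the label and not a separate finding. FLT4 stood at 168 CPM in fresh and 195 CPM in cryopreserved lymphatic cells and at 9.57 and 13.5 CPM in blood endothelial cells (log2 fold change 3.79 ± 0.32 (SE), edgeR adjusted p = 8.32e-31). The difference had the same direction in both libraries. PDPN, the mucin-like glycoprotein podoplanin, stood at 961 and 630 CPM in lymphatic and at 44.4 and 34.3 CPM in blood endothelial cells (4.14 ± 0.20). It is not specific to lymphatic vessels in these libraries, since fibroblasts had 885 and 758 CPM. LYVE1, a hyaluronan receptor, stood at 63.9 and 79.0 CPM, against 3.42 and 9.35 CPM. Its UMIs came from 16 of 85 fresh and from 10 of 87 cryopreserved lymphatic cells, and myeloid cells had more of it (112 and 241 CPM). CCL21 stood at 386 and 711 CPM against 14.3 and 97.6 CPM (3.36 ± 0.20), and was found in 54 and 53 lymphatic cells.

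The guidance ligands SEMA3A and SEMA3D showed large differences on this list. SEMA3A, a secreted semaphorin that repels growing axons, had 119 and 163 UMIs in fresh and cryopreserved lymphatic cells and 4 and 0 UMIs in blood endothelial cells (log2 fold change 6.89 ± 0.40). SEMA3D stood at 413 and 540 CPM against 10.9 and 13.5 CPM (5.07 ± 0.24). GPM6A, a membrane glycoprotein better known from neurons, stood at 1225 and 946 CPM against 67.7 and 27.0 CPM (4.34 ± 0.19). RELN, which encodes the secreted protein reelin, stood at 277 and 230 CPM against 12.98 and 18.7 CPM (3.85 ± 0.27). The transcription factor genes TBX1 (3.78), MAF (3.77), NR2F2 (1.85) and SOX18 (1.09) were called higher too, and SOX18 and NR2F2, which act upstream of PROX1, had the smallest changes among the 17. NRP2, a VEGF-C co-receptor, and PPFIBP1 were not called (0.30 and 0.29). The gene called lower was CD36, a fatty acid receptor, with 0 and 1 UMI in lymphatic cells and 362 and 180 UMIs in blood endothelial cells. Over both libraries this is a 259-fold lower level (95% counting interval 46.3 to 10252). TFF3, PKHD1L1, EFEMP1 and COLEC12 had too few UMIs to be tested.

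**Figure D2:**
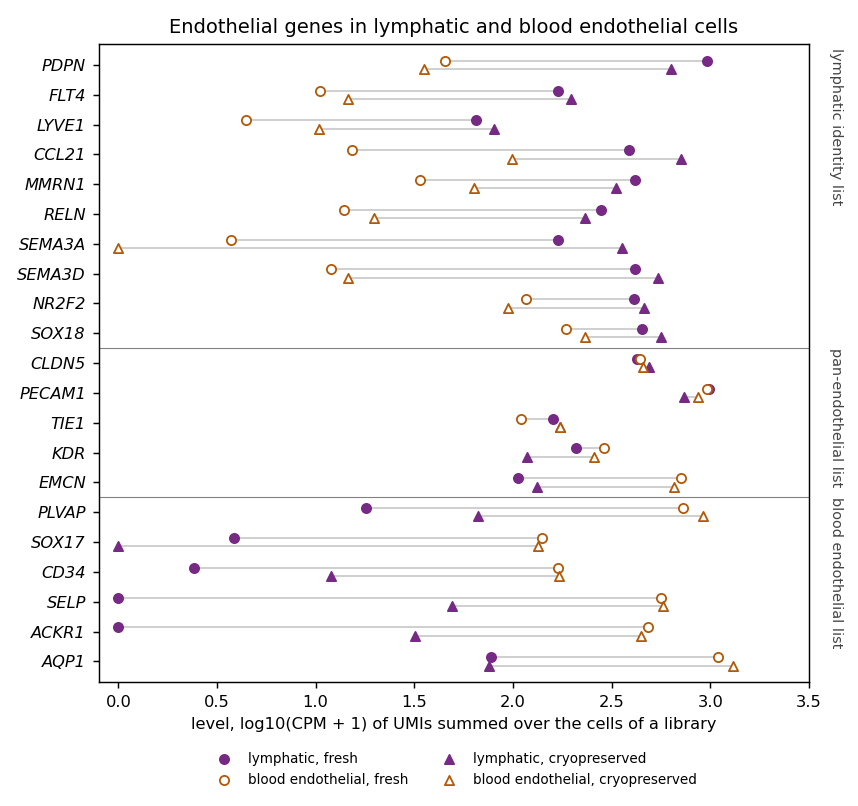
The x axis gives the level of each gene as log10(CPM + 1) of UMIs summed over lymphatic (filled) and blood endothelial cells (open) of the fresh (circles) and cryopreserved library (triangles), and grey lines join the 2 kinds of cell of a library. CLDN5 and PECAM1 sit together in both kinds, while FLT4, SEMA3A and SEMA3D lie to the right and PLVAP, SOX17, SELP and ACKR1 to the left in lymphatic cells.

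Genes of the VEGF-C and angiopoietin pathways went in both directions. Of 27 tested, 6 were called higher, 8 lower and 13 were not called, where 12.3% and 14.4% of all genes were called, with a median of 0.03 whose sign changed with the processing. Among ligands and their processing, ADAMTS3, the protease that activates VEGF-C, stood at 80.9 CPM in fresh and 72.4 CPM in cryopreserved lymphatic cells and at 4.10 and 3.12 CPM in blood endothelial cells (4.15 ± 0.47, adjusted p = 3.62e-17). VEGFC itself had 3 UMIs in the lymphatic cells of each library and stood at 150 and 144 CPM in blood endothelial cells (-4.98 ± 0.41). ANGPT2, the context-dependent ligand of the TIE2 receptor, was higher in lymphatic cells (382 and 345 CPM against 93.6 and 71.7 CPM, 1.94 ± 0.19). VEGFD had no UMI in either kind of cell.

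The receptors divided. FLT4 was higher, as given above, while NRP1, the co-receptor of VEGF-A, was lower (73.8 and 28.5 CPM against 247 and 239 CPM, -2.39 ± 0.22). KDR, which encodes VEGFR2, stood at 209 and 116 CPM against 290 and 255 CPM, a change of -0.94 that did not reach 2-fold. Both genes of the angiopoietin receptors were present. TEK, which encodes TIE2, was lower (65.3 and 96.6 CPM against 161 and 145 CPM, -1.16 ± 0.23), and TIE1 was not called (159 and 171 CPM against 109 and 171 CPM, 0.08 ± 0.20). PTPRB, the phosphatase that removes phosphate from TIE2, was also lower, at 90.9 and 72.4 CPM against 817 and 645 CPM (-3.35 ± 0.19). For adrenomedullin signalling, which lymphatic vessels need, the receptor gene CALCRL was lower (640 and 810 CPM against 1719 and 1697 CPM, -1.44 ± 0.15), its partner RAMP2 was not called (0.03 ± 0.15) and the ligand gene ADM was not called (258 and 323 CPM against 102 and 157 CPM), since its change was just under 2-fold. Among the kinases and receptors that meet sphingosine 1-phosphate, SPHK1, which makes this lipid, was higher (71.0 and 143 CPM against 13.7 and 20.8 CPM, 2.38 ± 0.33), and S1PR1 was not called (0.01 ± 0.23). NOTCH1 (1.48) and EPHB4 (1.41) were called higher, and ACKR3, BMPR2 and ENG were called lower. For ACKR3 the call rested on the fresh cells (36.9 against 142 CPM), since the cryopreserved levels were close (140 against 143 CPM).

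Pan-endothelial genes were shared in part. Of 24 tested, 12 were called lower in lymphatic cells (14.4% over all genes), 2 higher (ICAM2 and LMO2, 12.3% over all genes) and 10 were not called. PECAM1 stood at 984 and 731 CPM in lymphatic and at 963 and 866 CPM in blood endothelial cells (-0.30 ± 0.15), and CLDN5 at 422 and 490 CPM against 441 and 453 CPM (-0.18 ± 0.16). Neither was called. The transcription factor gene ERG was lower (287 and 237 CPM against 970 and 716 CPM, -1.88 ± 0.16), as were EMCN (-2.74), CLEC14A (-3.46) and NOS3, the endothelial nitric oxide synthase, which had 1 and 3 UMIs in lymphatic cells and stood at 102 and 103 CPM in blood endothelial cells.

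None of the 21 blood endothelial genes tested was higher, 18 were called lower and 3 were not called (SPARCL1, HEY1 and EFNB2), where 12.3% of all genes were called higher and 14.4% lower, with a median of -3.93. This list too was chosen for what is known to mark blood vessels. PLVAP stood at 17.0 CPM in fresh and 65.9 CPM in cryopreserved lymphatic cells and at 726 and 920 CPM in blood endothelial cells (-4.66 ± 0.21). SOX17 had 2 and 0 UMIs in lymphatic cells against 331 UMIs in blood endothelial cells, a 79.1-fold lower level (counting interval 21.7 to 656). The water channel gene AQP1 was at 76.7 and 74.6 CPM against 1087 and 1298 CPM (-4.15 ± 0.19). The basement membrane genes COL4A1 (-1.83), COL4A2 (-1.57), HSPG2 (-1.95) and COL15A1 (-2.77) were all called lower. P-selectin (SELP) and the chemokine scavenger ACKR1 were at 0 UMIs in the fresh lymphatic cells, but 3 cryopreserved lymphatic cells held 22 SELP UMIs and 3 held 14 ACKR1 UMIs.

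Among cell junction genes, of 15 tested, 2 were called higher, 5 lower and 8 were not called, beside 12.3% called higher and 14.4% lower over all genes. JAM2 had 5 and 7 UMIs in lymphatic cells and 336 and 259 CPM in blood endothelial cells (-5.03 ± 0.30), and JAM3 and F11R, which encodes JAM-A, were called lower as well, together with ESAM and the gap junction gene GJA1 (-1.64). The desmosome and adherens junction gene JUP, which encodes plakoglobin, was higher (104 and 103 CPM against 25.97 and 19.7 CPM, 1.96 ± 0.31).

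Of 16 genes known from collecting vessels and valves, 8 were called higher (12.3% over all genes), 3 lower (14.4% over all genes, to which these 3 are close) and 5 were not called, with a median of 1.01. NFATC1, a transcription factor of developing valves, stood at 1036 and 1008 CPM in lymphatic and at 169 and 150 CPM in blood endothelial cells (2.48 ± 0.16). CLDN11, a claudin of valve endothelium, stood at 160 and 132 CPM against 4.78 and 2.08 CPM (5.11 ± 0.40) with UMIs in 31 of 85 fresh lymphatic cells and 21 of 87 cryopreserved ones. NEO1, which encodes neogenin, a receptor of netrins and repulsive guidance molecules, stood at 318 and 402 CPM in 25 and 24 cells, against 5 UMIs in all blood endothelial cells (7.12 ± 0.34). FN1 (2.18), CELSR1 (1.72), UNC5B (1.60), CD9 (1.47) and the flow sensor gene PIEZO1 (1.08) were the other genes called higher. ITGA9, the integrin of valve leaflets, was not called (-0.40 ± 0.19), and the valve transcription factor gene FOXC2 had 1 UMI in all lymphatic cells.

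Genes that guide leukocytes went in both directions, with more of them lower. Of 23 tested, 13 were called lower (14.4% over all genes), 7 higher (12.3%) and 3 were not called, with a median of -1.10. The median was -0.63 without the fresh library and -0.67 without a filter on low counts. The lymphatic cells had less of the adhesion receptor genes ICAM1 (138 and 149 CPM against 892 and 1020 CPM, -2.93 ± 0.17) and VCAM1 (24.1 and 46.1 CPM against 366 and 252 CPM, -3.41 ± 0.24), and of the alarmin IL33 (173 and 158 CPM against 1247 and 1033 CPM, -2.98 ± 0.17). The neutrophil chemokine gene CXCL2 stood at 822 and 3275 CPM against 6899 and 11344 CPM (-2.62 ± 0.14). The chemokine genes CCL2 (-1.44) and CXCL12 (-2.02) were called lower as well. Higher were CCL21, the atypical chemokine receptor ACKR2, which scavenges inflammatory chemokines (56.8 and 92.2 CPM against 10.9 and 10.4 CPM, 2.52 ± 0.39), the mannose receptor MRC1 (75.2 and 61.5 CPM against 4.10 and 11.4 CPM, 3.06 ± 0.43), SPHK1 and ICAM2. The other genes called higher, CCL5 and CXCL8, had opposite signs in the libraries. CCL5 had a log2 ratio of 2.88 between fresh cells and of -0.11 between cryopreserved cells, and it was found in 9 fresh lymphatic cells, 1 of which held 37.1% of its UMIs. CXCL8 was found in 5 fresh and 2 cryopreserved lymphatic cells.

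**Figure D3:**
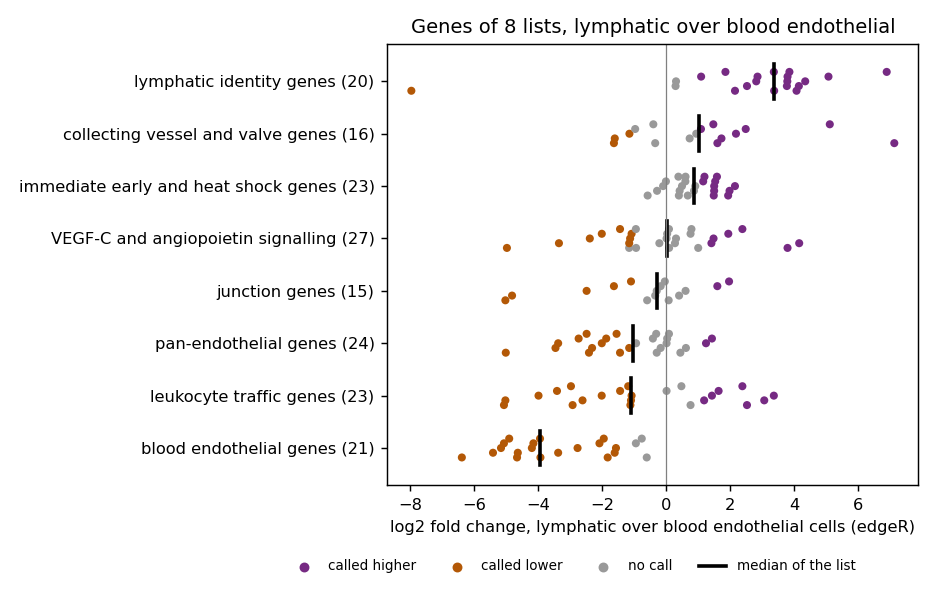
Each point is 1 tested gene of a list, with its log2 fold change of lymphatic over blood endothelial cells on the x axis (edgeR), coloured by its call, and the black bar is the median of the list. The medians run from 3.37 for the lymphatic identity genes to -3.93 for the blood endothelial genes.

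The 15 genes with the highest log2 fold changes that had the same sign in both libraries were led by ECRG4 and SCG3. ECRG4, which encodes the precursor of the secreted peptide augurin, had 269 UMIs in 23 fresh and 263 UMIs in 19 cryopreserved lymphatic cells and 2 and 1 UMI in blood endothelial cells. One fresh cell held 81 of these UMIs and 1 cryopreserved cell held 70. Over both libraries this is a 371-fold higher level (counting interval 126 to 1805). SCG3, which encodes secretogranin III, a protein of dense-core secretory granules, had 241 and 259 UMIs in 25 and 31 lymphatic cells and 1 and 4 UMIs in blood endothelial cells (7.43 ± 0.32, adjusted p = 8.32e-110). Each was detected in a minority of the lymphatic cells. NEO1, SEMA3A and CLDN11 were among the 15 too. RTN1, a reticulon of the endoplasmic reticulum, stood at 413 and 323 CPM against 8.88 and 4.15 CPM (5.55 ± 0.28), and RYR2, a calcium release channel, at 1092 and 687 CPM against 28.0 and 6.23 CPM (5.48 ± 0.22). One fresh cell held 26.4% of the fresh RYR2 UMIs. The others were ACP5, TMEM178B, RANBP3L, the amino acid transporter gene SLC38A4, the adaptor gene SHC3, ASTN2 and the unnamed genes ENSSSCG00000050456 and ENSSSCG00000031023.

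The same genes were set against the other cell gates. These 15 were picked for high fold changes, and the share over all genes called higher is not given here, so nothing is read from the count. For 13 of the 15, the lower of the 2 lymphatic levels was above the highest level in fibroblast, keratinocyte, T cell, myeloid and mural gates. RTN1 reached at most 3.46 CPM there, SCG3 5.41 CPM and CLDN11 3.71 CPM. ECRG4 reached 20.4 CPM in cryopreserved mural cells, NEO1 130 CPM in fresh mural cells and RYR2 511 CPM in fresh mural cells. The exceptions were ACP5, with 701 CPM in fresh myeloid cells, and SHC3, with 265 CPM in cryopreserved myeloid cells.

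Among the 10 genes with the lowest log2 fold changes, CD36 has been given, and the other 9 had no UMI in the lymphatic cells of either library. Against the limit of 3 UMIs over both lymphatic sums, WSCD1 was at least 12.4-fold lower, the ubiquitin-like modifier gene UBD at least 11.95-fold lower, NSG2 at least 11.5-fold lower, C1orf54 at least 8.45-fold lower and SLA-DOA, which encodes a chain of a class II MHC chaperone, at least 8.29-fold lower. UBD had 55 and 20 UMIs in blood endothelial cells and SLA-DOA had 30 and 22. The remaining 4 genes carry no name, and of these ENSSSCG00000031476 was at least 13.1-fold lower. With DESeq2, WSCD1, UBD, NSG2, C1orf54 and 2 of the unnamed genes were not called (adjusted p from 0.3003 to 0.417).

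Several immediate early genes, which many cells switch on soon after a stimulus, were higher in lymphatic than in blood endothelial cells, though not always above the other cells of the skin. Of 23 immediate early and heat shock genes, 10 were called higher (12.3% over all genes), none was called lower (14.4%) and 13 were not called, with a median of 0.87. FOS stood at 1505 CPM in fresh and 2621 CPM in cryopreserved lymphatic cells, against 404 and 479 CPM (1.98 ± 0.15, adjusted p = 4.42e-38). Blood endothelial cells were the low side of this pair for FOS, which stood at 1840 and 2111 CPM over all filtered cells and at 2069 and 2137 CPM in fibroblasts. Fresh lymphatic cells were below the level over all fresh filtered cells for FOS, EGR1 (307 against 344 CPM), ATF3 (534 against 787 CPM), NR4A1 (261 against 268 CPM) and DNAJB1 (249.9 against 318 CPM). They were above it for IER3 (845 against 434 CPM), KLF2 (768 against 272 CPM), JUN (1235 against 1027 CPM), KLF4 (684 against 551 CPM) and FOSB (535 against 501 CPM). Cryopreserved lymphatic cells were above the level over all cryopreserved filtered cells for FOS, ATF3 (1131 against 930 CPM), NR4A1 (459 against 258 CPM), IER3 (974.7 against 495.3 CPM) and KLF2 (1089 against 334 CPM). The same held for JUN (1466 against 865 CPM), KLF4 (1196 against 594 CPM) and FOSB (689 against 528 CPM). They were below it for EGR1 (397 against 419.5 CPM) and level with it for DNAJB1 (386.4 against 385.8 CPM). For KLF2 the cryopreserved blood endothelial cells, at 470 CPM, also lay above the level over all filtered cells. FOSB (2.15), EGR1 (1.93), KLF4 (1.58), IER3, NR4A1, JUN (1.48), KLF2 (1.19) and ATF3 (1.15) were called higher than in blood endothelial cells as well, and DNAJB1 (1.53) was the heat shock gene among the 10. HSPA8 (0.87), HSP90AA1 (0.42) and HSPB1 (0.39) did not reach 2-fold. The heat shock gene HSP70.2, which is not on the list, was called higher too, at 3078 and 4568 CPM against 621 and 730 CPM (2.28 ± 0.14, adjusted p = 7.89e-54). The mitochondrial share moved the other way, with lower medians in lymphatic than in blood endothelial cells of both libraries, and its part in the difference was not tested.

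Fresh and cryopreserved lymphatic endothelial cells were next compared with each other. The CPM of the 2 sums were scaled with edgeR's TMM factors. Of 2403 genes with at least 100 UMIs, 33 had a level at least 2-fold higher (1.37%) and 40 a level at least 2-fold lower (1.66%) in the cryopreserved cells. The median absolute log2 ratio was 0.28 in lymphatic cells and 0.26 over 3677 genes in blood endothelial cells, where 26 genes were 2-fold higher and 36 lower. The median ratio was -0.11 in lymphatic and -0.07 in blood endothelial cells, and ratios near this value are the rule and not a feature of a gene. Of the 73 lymphatic genes past 2-fold, 40 had a single cell that held over 20% of the UMIs of its library. The share of such genes among all 2403 is not given here.

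Without such single cells, the highest ratio was that of PRR16, a regulator of cell size, which stood at 132 CPM in the fresh library (26 cells with a UMI) and at 555 CPM after cryopreservation (51 cells with a UMI) (log2 ratio 2.04, 95% counting interval 1.69 to 2.40). Blood endothelial cells had a similar ratio (1.87, interval 1.60 to 2.16). The metallothionein gene MT1X stood at 524 and 1519 CPM (1.51, interval 1.32 to 1.69, blood endothelial cells 1.30). MYC stood at 59.6 and 167 CPM (1.45, interval 0.89 to 2.03, blood endothelial cells 0.56). The unnamed gene ENSSSCG00000051070 had a ratio of 1.43 (interval 0.93 to 1.94), with 1.83 in blood endothelial cells (interval 1.40 to 2.27). RPGRIP1L had 1.38 (blood endothelial cells 0.87), and the amino acid transporter subunit gene SLC3A1 had the lowest of these 8 ratios with 1.18 (blood endothelial cells 0.89). PIR, with 1.30, had only 13 and 9 UMIs in blood endothelial cells. The unnamed gene ENSSSCG00000004572 stood at 585 and 1403 CPM in lymphatic cells (1.23, interval 1.05 to 1.41) and at a ratio of 0.22 (interval 0.14 to 0.30) in blood endothelial cells. These 8 genes were chosen for high ratios in lymphatic cells, so lower ratios in blood endothelial cells follow in part from that choice. The difference between the 2 kinds of cell was not tested. RPGRIP1L stood at 252 CPM over all fresh and 496 CPM over all cryopreserved filtered cells, and MYC at 173 and 261 CPM. ENSSSCG00000004572 stood at 174.5 and 198 CPM over all filtered cells, and its other levels went both ways. It had 48.9 and 104 CPM in fibroblasts, 129 and 233 CPM in T cells and 4.07 and 14.5 CPM in keratinocytes. Myeloid cells had 26.2 and 27.9 CPM of it, and mural cells 91.9 and 44.8 CPM.

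Among genes in which no single cell held over 20% of the UMIs of its library, the lowest ratio was that of UGDH. UGDH, the enzyme that makes a precursor of hyaluronan and other glycosaminoglycans, stood at 230 CPM in fresh and 79.0 CPM in cryopreserved cells (log2 ratio -1.57, interval -2.13 to -1.04), with 0.07 in blood endothelial cells (interval -0.34 to 0.47). CHST15, a chondroitin sulfate sulfotransferase, had a ratio of -1.40 (blood endothelial cells -0.18), and SDC2, which encodes the heparan sulfate proteoglycan syndecan-2, had -1.22 (0.06). The others were EDA (-1.40, blood endothelial cells -0.92), FGD5 (-1.38, blood endothelial cells -0.35), the glutamine transporter gene SLC38A1 (-1.36, blood endothelial cells -0.90), DNAJC1 (-1.13, blood endothelial cells -0.37) and the unnamed gene ENSSSCG00000040100 (-1.13, blood endothelial cells -0.22). All 8 rested on 21 to 44 UMIs in the cryopreserved cells. They were chosen for low ratios in lymphatic cells, so higher ratios in blood endothelial cells follow in part from that choice. This difference between the 2 kinds of cell was not tested either.

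**Figure D4:**
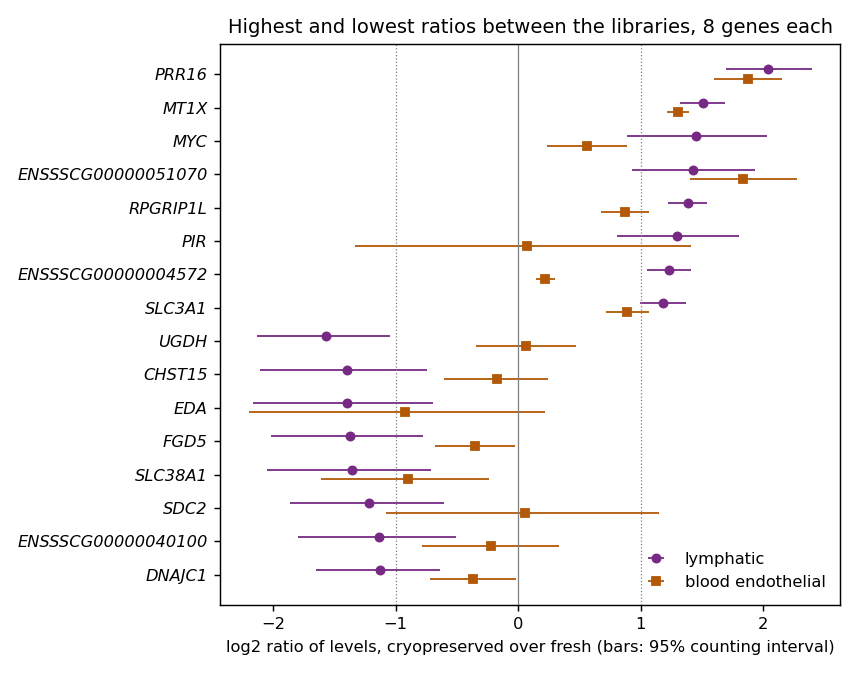
The x axis gives the log2 ratio of the level in cryopreserved over fresh cells for the 8 highest and 8 lowest genes of the lymphatic endothelial cells (circles), beside blood endothelial cells (squares), with bars for the 95% counting interval and dotted lines at 2-fold. PRR16 and MT1X are high in both kinds of cell, and UGDH lies at -1.57 in lymphatic cells and at 0.07 in blood endothelial cells. The genes were chosen by their ratios in lymphatic cells, so smaller ratios in blood endothelial cells follow in part from that choice.

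The listed genes were also set side by side between fresh and cryopreserved lymphatic cells. Over all genes, 1.37% and 1.66% were past 2-fold higher and lower, so few genes past 2-fold in a list is the background and nothing is read from these counts. Of 15 lymphatic identity genes with enough UMIs, 1 was past 2-fold (SEMA3A, 1.05, interval 0.70 to 1.41), with a list median of 0.12. One cell held 23.5% of the fresh SEMA3A UMIs. CCL21 had a log2 ratio of 0.85 (interval 0.61 to 1.09) and PDPN of -0.64 (interval -0.84 to -0.44). None of 16 pan-endothelial, 13 collecting vessel and valve, 11 junction or 18 VEGF-C and angiopoietin genes was past 2-fold, with medians of 0.02, 0.18, 0.05 and -0.06. Of 22 immediate early and heat shock genes, 3 were past 2-fold, DUSP1 (1.08), ATF3 (1.05) and MYC. The list had a median of 0.30, against -0.11 over all genes and 0.10 for the list in blood endothelial cells. A positive ratio was seen for 18 of the 22, and the share over all genes is not given here. FOS had a ratio of 0.77 (interval 0.65 to 0.89) in lymphatic and 0.25 (interval 0.07 to 0.43) in blood endothelial cells. The cold-induced gene RBM3 stood at 126 and 204 CPM (0.66, interval 0.227 to 1.098), with 0.59 in blood endothelial cells. Of 11 leukocyte traffic genes, CXCL2 (1.96) and CCL5 (-2.15) were past 2-fold, and single cells carried much of both. One cryopreserved cell held 38.7% of the CXCL2 UMIs of its library, and 1 cell held 37.1% of the fresh and another 73.5% of the cryopreserved CCL5 UMIs.

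Several of the largest ratios came from single cells, and these genes were chosen after their values were seen. In the cryopreserved library, the lymphatic cell with the third most UMIs held 128 of 178 PTGS2 UMIs (71.9%), 82 of 96 ZDHHC18 UMIs (85.4%) and 94 of 107 UMIs of ENSSSCG00000017448 (87.9%). Another cryopreserved cell held 577 of 1492 CXCL2 UMIs (38.7%), 59 of 102 IL6 UMIs (57.8%) and 46 of 59 CSF3 UMIs (78.0%). That cell had 2 PROX1, 8 CLDN5 and 6 PECAM1 UMIs. It had none of the lymphatic identity genes PDPN, FLT4, LYVE1, CCL21, MMRN1 and RELN, so its lymphatic label is weak. In the fresh library, 1 cell held 152 of 160 UMIs of the class II MHC gene SLA-DRA, 96 of 106 SLA-DRB1 UMIs and 481 CD74 UMIs. This cell had 2 PROX1 UMIs, 1 PDPN UMI and none of CLDN5, PECAM1 or FLT4, and it also held 5 UMIs of the macrophage gene AIF1 and 2 of the leukocyte gene PTPRC, which go against an endothelial label. COL23A1 had 143 of its 148 fresh UMIs in 1 cell, which carried 23 PROX1, 13 CLDN5 and 1 PECAM1 UMIs. That cell, with 15273 UMIs in all, had none of PDPN, FLT4, LYVE1, CCL21, MMRN1 and RELN. CCBE1, a secreted cofactor of VEGF-C processing with too few UMIs for the comparison, had 29 UMIs in 26 fresh lymphatic cells and none in the 87 cryopreserved cells, which is at least 6.25-fold lower against the limit of 3 UMIs in that library. Over all filtered cells CCBE1 stood at 99.0 CPM in the fresh and 42.1 CPM in the cryopreserved library, and in blood endothelial cells at 18.4 and 2.08 CPM. It was lower in the cryopreserved library in every other gate too, with 174 and 86.2 CPM in fibroblasts and 22.3 and 0.88 CPM in T cells. The fall is thus not particular to lymphatic cells.

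The lymphatic endothelial cells also differed among themselves. For each library alone, the variance of Pearson residuals was ranked over 3829 genes with at least 20 UMIs in each library, and 26 genes were among the top 40 in both. They included immediate early genes (FOS, JUN, ZFP36), the ubiquitin gene UBB, the heat shock gene HSP70.2, cytoskeleton and calcium-binding genes (VIM, TMSB10, S100A4), lipid carriers (FABP5 and APOA1), transcription regulators (WWTR1, TCF4), and ZFP36L2, SCG3, RYR2, GPM6A and CXCL2. FOS ran from 0 UMIs in 24 fresh cells through a median of 3 to 163 in 1 cell, and from 0 UMIs in 14 cryopreserved cells through a median of 5 to 110. The 10 cells with most FOS held 53.7% of its fresh and 54.5% of its cryopreserved UMIs.

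Several of these genes, with PDPN and CLDN11 added after their values were seen, varied together across cells, given here as a description, since cells of a library share its depth and free RNA. The residuals of FOS correlated with those of JUN (Pearson's r = 0.74 over 85 fresh and 0.57 over 87 cryopreserved cells), ZFP36 (0.67 and 0.62) and the histone gene H3-3B (0.72 and 0.47). They ran against EMP1 (-0.47 and -0.46) and WWTR1 (-0.43 and -0.35), which encodes the Hippo pathway coactivator TAZ. WWTR1 itself correlated with TCF4 (0.66 and 0.63) and EMP1 (0.56 and 0.60), and EMP1 with PDPN (0.42 and 0.54). A separate set joined SCG3 with CLDN11 (0.59 and 0.78) and S100A4 (0.59 and 0.73), and S100A4 with TMSB10 (0.55 and 0.65) and VIM (0.41 and 0.51).

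**Figure D5:**
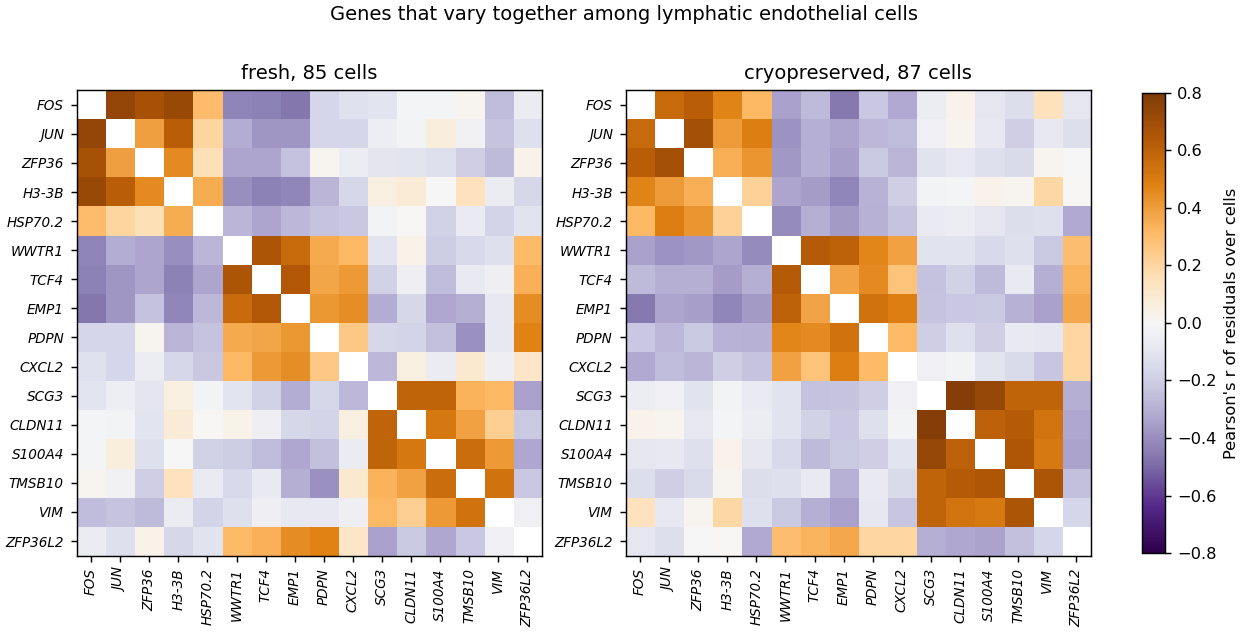
The colour gives Pearson's r of the residuals of 2 genes over 85 fresh (left) and 87 cryopreserved lymphatic endothelial cells (right), for genes chosen after their values were seen. The blocks around FOS, around WWTR1 and around SCG3 appear in both libraries.

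Cells with a CLDN11 UMI were set beside those without one, a split chosen after these values were seen and given with no test. It held 31 fresh and 21 cryopreserved cells with CLDN11 and 54 and 66 without. SCG3 stood at 734 CPM in the fresh cells with CLDN11 and 56.4 CPM in those without, and at 1629 and 127 CPM in the cryopreserved cells. NEO1 stood at 657 and 71.2 CPM in the fresh and at 777 and 246 CPM in the cryopreserved cells, and S100A4 at 704 and 304 CPM and at 2174 and 395 CPM. Single cells held much of these UMIs. The fresh cell rich in class II MHC UMIs, which had no CLDN11, held 77 of the 333 fresh S100A4 UMIs (23.1%), and 1 cryopreserved cell with CLDN11 held 100 of 418 (23.9%). One cell with CLDN11 held 23.7% of the fresh and another 24.0% of the cryopreserved NEO1 UMIs, and 1 held 22.8% of the cryopreserved SCG3 UMIs. Without the cell that had most UMIs of the gene, an alternative chosen after these values were seen, S100A4 stood at 704 and 119 CPM in the fresh and 1491 and 395 CPM in the cryopreserved cells, NEO1 at 491 and 71.2 CPM and at 494 and 246 CPM, and SCG3 at 631 and 56.4 CPM and at 1308 and 127 CPM. Among genes of lymphatic capillaries, CCL21 stood at 189 CPM with and 530 CPM without CLDN11 in the fresh cells and at 254 and 902 CPM in the cryopreserved cells, and LYVE1 at 33.7 and 85.9 CPM and at 14.9 and 106 CPM, the 14.9 CPM being 2 UMIs in 1 cell. PDPN stood at 869 CPM with and 1028 CPM without CLDN11 in the fresh cells and at 672 and 612 CPM in the cryopreserved cells (547 and 612 CPM without the cell with most PDPN), and MMRN1 at 364 and 454 CPM and at 224 and 376 CPM. The cells with CLDN11 were deeper, with medians of 8533 against 6715 UMIs in the fresh and 5727 against 4446 UMIs in the cryopreserved library. A minimum of 1 UMI favours deep cells, and the part of depth in these levels was not tested. SCG3 and S100A4 were both detected in 11 of 31 fresh cells and 10 of 21 cryopreserved cells with CLDN11, and in 4 of 54 and 9 of 66 cells without.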

How the data were processed

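Droplet 3′ libraries of fresh and cryopreserved pig skin cells were analysed. The authors mapped reads to Sscrofa11.1 with Cell Ranger 4.0.0 and STAR 2.5.1b (per the submitters' processing notes) and deposited raw UMI counts per gene and barcode, without normalization. Gene coordinates are from RefSeq for the same build. The feature files named 16719 genes, a table of gene names 772 more, and 14417 kept their identifiers. STAB2, SELE, PODXL, BMP9, JUND, HSPA1A, CIRBP, KRT14 and a few other listed genes carry no such name and were not analysed here.

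Cells were filtered with the maxima that the study states. No doublet caller was run: the study removed doublets by light scatter and by these maxima. UMIs were summed per library and cell set, with groups taken from the labels. The main test was edgeR 4.0.16 with TMM factors and the library as a block on genes with at least 50 UMIs. DESeq2 1.42.0 was the alternative. Genes used by the gates and mitochondrial genes were left out of counts. CPM scale each sum to a common total. Share intervals are exact Clopper-Pearson intervals at 95%. On simulated counts for lymphatic over blood endothelial cells (6774 genes), 46% of genes changed 2-fold and 93% of those changed 4-fold were called, with 2 false calls. A call needs an estimate of at least 2-fold, so many true 2-fold changes are missed by design. The counts were drawn with the 1 spread that the fit assumes, and without genes whose UMIs sit in single cells. They therefore do not measure false calls in the real sums.

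Named genes were the 15 highest and 10 lowest called genes with the same sign in both libraries, the 8 highest and 8 lowest cryopreserved over fresh ratios without a cell holding over 20% of the UMIs, the genes among the 40 most variable in both libraries, and listed genes with at least 50 UMIs, with others said to be chosen later. The cells and gene lists were chosen with earlier results of these data known. The replicates of a condition number 1, and p-values measure only the spread between these sums. Results of some genes that the rules would name are not reported here.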

Additional observations from a re-analysis of the deposited data

Results flagged for a closer look

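Barcodes with at least 2 PROX1 UMIs were also found outside the cells described, 27 fresh and 20 cryopreserved ones, and none of the comparisons uses them. Of these, 17 fresh and 9 cryopreserved barcodes lay outside the limits on genes, UMIs or mitochondrial share, and 10 fresh and 11 cryopreserved barcodes within those limits were removed by the collagen or KRT5 limit. The removed barcodes within the limits had a median of 3 (fresh) and 4 (cryopreserved) pan-endothelial genes and CLDN5 at 0 and 36.6 CPM, against 12 and 10 genes and 422 and 490 CPM in the cells kept. Their PDPN level was 1758 and 768 CPM. The 8 fresh barcodes outside the maxima with low collagen and KRT5 had a median of 15 pan-endothelial genes and CLDN5 at 496 CPM, and the 4 such cryopreserved barcodes had a median of 3.5 genes and CLDN5 at 351 CPM.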

How the results depend on the processing

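Genes called higher and lower in lymphatic over blood endothelial cells numbered 471 and 611 with DESeq2 and 388 and 543 with a minimum of 200 UMIs, where only 3210 genes were tested. Without a filter, without the library block, with at least 3 PROX1 UMIs, with the blood gate on CDH5 alone, and without the mitochondrial limit (chosen after seeing the data) they lay between 737 and 938 and between 894 and 1249. Without either library no residual degree of freedom is left, so only fold changes were computed. Of the single genes followed over these settings, 296 values kept their direction and call and 6 lost the call, all with DESeq2. The VEGF-C and angiopoietin median turned to -0.117 without a filter, -0.0146 with a minimum of 200 UMIs, -0.0321 with the blood gate on CDH5 and -0.247 without the fresh library (0.121 without the cryopreserved library), and the cause was not tested. Genes past 2-fold in cryopreserved cells numbered 95 higher and 122 lower with a minimum of 50 UMIs, and 14 and 11 with 200 UMIs. The share of lymphatic cells was 4.11% (fresh) and 2.98% (cryopreserved) with 1 PROX1 UMI, 1.63% (cryopreserved) with 3, and 2.33% (fresh) without the mitochondrial limit, which adds barcodes to the denominator. The ratio of median UMIs lay between 0.629 and 0.681. No paired analysis of fresh against cryopreserved cells was possible because each condition has 1 library. Depth limits genes under about 50 UMIs over the 4 sums.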
